A study of Arabidopsis thaliana with 8 samples.

Results

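Transcription factors of 6 named families were followed across genotype and cold in Arabidopsis thaliana seedlings, with the basic leucine zipper (bZIP) genes first. The members were the probe sets of 1 gene whose platform symbol begins with a family name and a number. bHLH101 and IAA29 were left out. This gave 32 of 13356 genes with such a probe set: 14 bZIP, 6 IAA, 6 WRKY and 4 bHLH genes, 1 NAC gene (NAC014) and 1 TCP gene (TCP15). Each had 1 probe set. The rule also covers MYB, ERF, HSF, GATA, SPL, HB and NF-Y names, and none of these had a member, so those families were not analysed here. RefSeq (assembly TAIR10.1) holds 499 gene symbols of the same pattern, 30 of them bZIP.

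The bZIP proteins bind DNA as dimers held together by a leucine zipper, and many recognise sites with an ACGT core, as in abscisic acid responses. WRKY proteins are known for defence and senescence, Aux/IAA proteins repress auxin-responsive transcription, and the bHLH members here belong to the control of iron uptake. TabZIP6 is a wheat bZIP gene. The Arabidopsis bZIPs below are therefore the plant's own genes, and the level of the transgene itself was not analysed here.

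All 8 samples were total RNA of seedlings, 1 Affymetrix array each, aged 10 days and raised at 22 °C. The wild type was of ecotype Col-1. It and L20, a line overexpressing TabZIP6, were each sampled before cold and after 6 h at 4 °C, with 2 biological replicates per group. No group was kept at 22 °C for the same 6 h. In every cold difference below, cold therefore cannot be told apart from the 6 h that passed or from time of day. L20 is a single line, and the promoter driving the transgene, its ecotype and a vector control are not given in the labels. The labels call the replicates biological, but do not say how they were raised or how independent they were. A p-value therefore covers only the spread among these arrays. Of the markers of seedling tissue that could be measured, the shoot gene RCA read 12.62 to 13.52 and the root genes PYK10 8.51 to 9.60 and EXPA7 4.41 to 5.41 in log2 signal. RCA differed after cold by 0.41 ± 0.24 in wild type and 0.52 ± 0.24 in L20, and by 0.46 averaged over both lines (limma adjusted p = 0.298, and below 0.05 before adjustment). PYK10 differed by 0.05 and -0.43 and EXPA7 by 0.20 and -0.08. Before cold, L20 minus wild type was 0.56 ± 0.35 for PYK10, 0.01 ± 0.40 for EXPA7 and -0.10 ± 0.24 for RCA. The part of tissue makeup in the cold and line differences below was not tested. Tests are limma's with Benjamini-Hochberg adjustment over 22746 probe sets, and a gene was called at an adjusted p under 0.05. For a single gene, exact permutation of 2 and 2 arrays reaches p = 0.333 at the lowest (two-sided).

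Arrays of the same replicate number deviated together: replicate differences were correlated at 0.341 to 0.837 across all probe sets for any pair of groups. Values from a model blocked on replicate number (the replicate block) are given where they changed a call. Array medians ran from 4.95 to 5.05 in log2 signal, close to each other. RMA usually sets arrays to a like distribution; the labels do not say whether all 8 were run through it jointly. Every difference is relative to the bulk of the genes, and in seedlings fewer cells of a type and less RNA per cell cannot be told apart.

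The bZIP genes were described first. bZIP61, a transcription factor gene closely related to bZIP34, had the largest cold difference of the 32 genes in both lines. Its log2 signal was 7.19 and 7.59 in wild type before cold and 5.43 and 4.19 after it. In L20 it was 6.96 and 8.05 before and 5.08 and 4.48 after. All 4 arrays after cold lay below all 4 before, a separation that 4.3% of all probe sets showed in this direction. The log2 difference was -2.58 ± 0.51 (SE, n = 2 against 2) in wild type, a 5.99-fold lower signal, and -2.72 ± 0.51 in L20, 6.61-fold lower. Neither passed by limma (adjusted p = 0.139 and 0.102), nor with the replicate block (limma adjusted p = 0.0797 and 0.0538). It passed in both lines when the block was joined with trend and robust settings (limma adjusted p = 0.0117 and 0.00894). With the block and any 1 array left out, the difference ran from -3.35 to -1.81 in wild type and from -3.51 to -1.94 in L20. Most of these fits did not call it in either line.

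Cold averaged over both lines, a comparison added after the data were seen, called bZIP61: it fell by 2.65 ± 0.36 on the log2 scale, 6.29-fold (limma adjusted p = 0.0180, and 0.0120 with the replicate block). In this comparison 1 of 32 members was called, downwards, where 2.11% of all probe sets were called and 0.787% downwards. With the block it was 2 of 32, both downwards, against 6.19% in all and 3.06% downwards. Without the block the call was lost without replicate 1 or 2 of wild type before cold (limma adjusted p = 0.0609 and 0.0811) and without replicate 1 or 2 of L20 after cold (0.0556 and 0.0551). With the block it was lost without replicate 2 of wild type after cold (limma adjusted p = 0.0508) and without replicate 1 or 2 of L20 after cold (0.0640 and 0.0749). The difference itself stayed between -2.97 and -2.34 in the unblocked fit with any 1 array left out. Of the 32 members 7 had an unadjusted p below 0.05 (bZIP28, bZIP44, bZIP53, bZIP61, WRKY22, WRKY42 and bHLH34), against 12.7% of all probe sets. In the blocked model this count was 11 of 32, against 20.1%.

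bZIP53 and bZIP44 belong to the S1 group of bZIPs, whose translation is repressed by sucrose and which act in the response to low energy. bZIP53 read 7.70 and 8.57 in wild type before cold and 7.54 and 7.25 after, and 8.70 and 8.06 in L20 before and 7.49 and 7.32 after. As for bZIP61, all 4 arrays after cold lay below all 4 before. The log2 difference was -0.74 ± 0.34 in wild type and -0.98 ± 0.34 in L20, and neither passed (limma adjusted p = 0.839 and 0.379). Averaged over both lines bZIP53 stood at -0.86 ± 0.24 (limma adjusted p = 0.166), and it passed after quantile normalization (0.0348).

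bZIP44 lay on the other side of 0. It read 5.08 and 5.70 in wild type before cold and 5.66 and 6.25 after, and 5.29 and 5.92 in L20 before and 6.48 and 6.28 after. The groups overlapped in wild type and were separate in L20. Its differences of 0.57 ± 0.33 and 0.77 ± 0.33 did not pass (limma adjusted p = 1.00 and 0.516). Within replicate numbers 1 and 2 the difference was 0.59 and 0.55 in wild type and 1.19 and 0.36 in L20. Averaged over both lines bZIP44 stood at 0.67 ± 0.23 and was not called (limma adjusted p = 0.264, and 0.0717 with the replicate block). It passed when the block was joined with trend and robust settings (limma adjusted p = 0.0415).

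bZIP17, bZIP28 and bZIP60 are the sensors and effectors of the unfolded protein response: bZIP17 and bZIP28 are held in the endoplasmic reticulum membrane until cleaved, and the bZIP60 transcript is spliced by IRE1. None of them was called with cold. bZIP28 read 5.45 and 6.25 in wild type before cold and 5.51 and 4.98 after, and 6.58 and 6.12 in L20 before and 5.89 and 5.08 after. Its log2 difference was -0.60 ± 0.39 in wild type, where the groups overlapped, and -0.87 ± 0.39 in L20, where they did not (limma adjusted p = 1.00 and 0.561).

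bZIP60 read 5.81 and 6.88 in wild type before cold and 6.26 and 6.38 after, and 6.97 and 6.13 in L20 before and 6.16 and 6.19 after. The 4 arrays before cold spread over 1.15 and the 4 after cold over 0.22, so the mean differences of -0.02 ± 0.40 and -0.38 ± 0.40 lay within the spread before cold. bZIP17 read 6.41 and 6.88 in wild type before cold and 6.59 and 7.05 after, and 7.24 and 7.02 in L20 before and 6.58 and 6.89 after. Its cold difference was 0.17 ± 0.25 in wild type and -0.39 ± 0.25 in L20. The probe sets do not tell the spliced form of bZIP60 or the cleaved proteins from the others.

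bZIP19, which activates zinc uptake genes under zinc deficiency, read 6.71 and 6.74 in wild type before cold and 7.28 and 7.08 after. In L20 it was 7.17 and 6.88 before and 7.05 and 7.08 after. The wild-type array groups did not overlap, with a difference of 0.46 ± 0.18 that missed the test (limma adjusted p = 0.660), and in L20 it was 0.04 ± 0.18. bZIP34, a regulator of lipid metabolism in pollen, differed between the replicates rather than with cold. On the arrays of replicate 1 it read 4.91, 4.54, 4.59 and 4.54, and on those of replicate 2 5.52, 5.34, 5.35 and 5.44, in the order wild type before and after cold and L20 before and after cold. Its cold difference was -0.27 ± 0.44 in wild type and 0.01 ± 0.44 in L20. The replicate block gave an SE of 0.14 in both lines and no call (limma adjusted p = 0.548 and 0.981).

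The other 6 bZIP genes had low signals, and 5 of them, bZIP24, bZIP42, bZIP43, bZIP52 and bZIP58, were among the 25% of probe sets with the lowest mean, as were IAA30 and IAA33. Values follow in the order wild type before cold, wild type after cold, L20 before cold and L20 after cold, replicate 1 first. bZIP24, a regulator of the salt response, read 3.72, 3.78, 3.77, 3.87, 3.55, 3.82, 3.60 and 3.72. bZIP42 read 3.46, 3.66, 3.65, 3.82, 3.54, 3.61, 3.31 and 3.82. None of these groups stood apart with cold. bZIP43 read 3.57, 3.50, 3.39, 3.67, 3.33, 3.54, 3.37 and 3.48. bZIP48 read 4.26, 4.55, 4.21, 4.55, 4.06, 4.60, 4.21 and 4.60, with replicate 2 the higher one in each group. bZIP58 read 4.03, 3.62, 3.40, 3.80, 3.67, 3.84, 3.48 and 3.83. The arrays before and after cold overlapped for all 5 genes in both lines, and their cold differences ran from -0.23 for bZIP58 to 0.17 for bZIP42 in wild type, and from -0.10 for bZIP58 to 0.07 for bZIP48 in L20. bZIP52, of the group that holds VIP1, read 3.57 and 3.44 in wild type before cold and 3.45 and 3.34 after, which overlapped (-0.11 ± 0.18). It read 3.86 and 3.60 in L20 before cold and 3.45 and 3.31 after, groups that did not overlap, and differed by -0.35 ± 0.18. Without background readings it is not known which of these low signals lay above background.

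**Figure D1:**
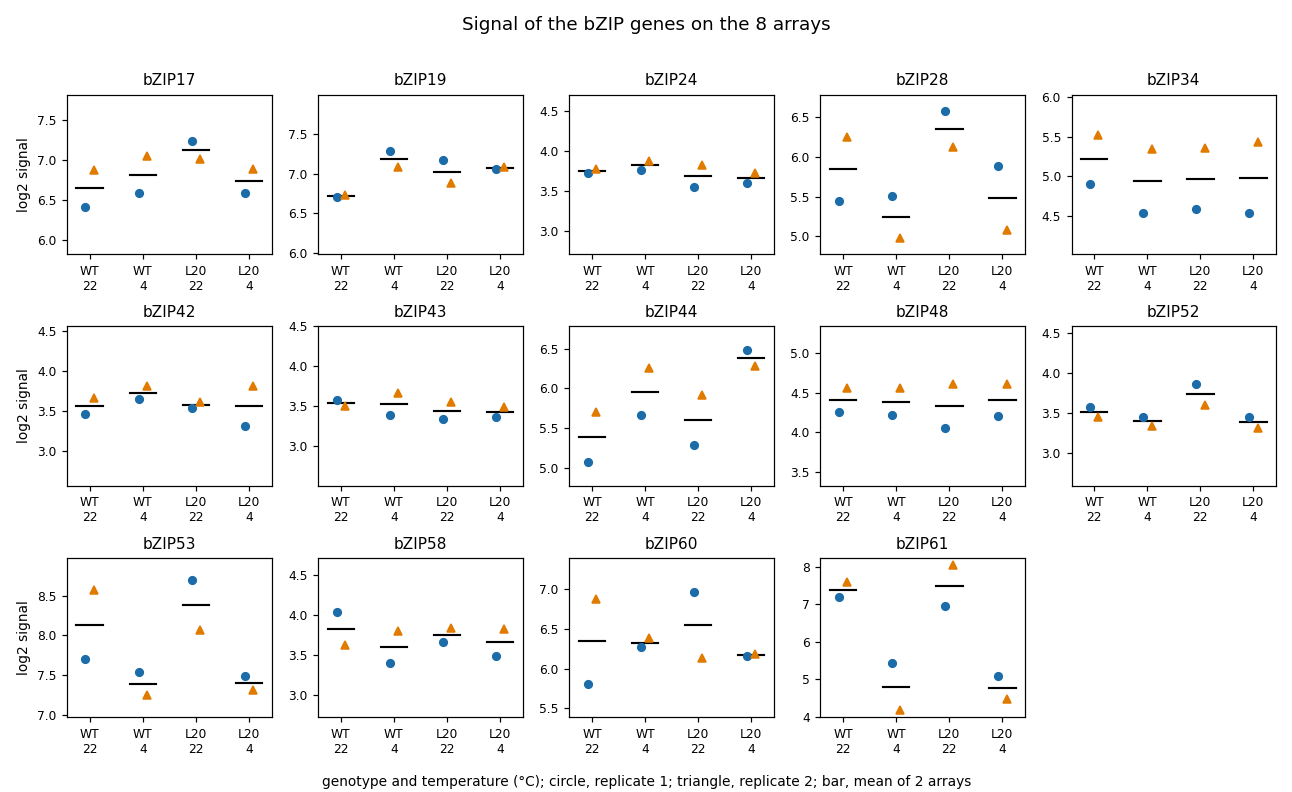
Log2 signal of the 14 bZIP genes on each array, with circles for replicate 1, triangles for replicate 2 and a bar for the mean of the 2 arrays of a group (each panel has its own axis, of at least 2 log2 units). bZIP61 was at 6.96 to 8.05 before cold and at 4.19 to 5.43 after it, and bZIP34 was higher on all 4 arrays of replicate 2.

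The bZIP genes as a family had cold differences on both sides of 0. The median log2 difference over the 14 genes was -0.02 in wild type and -0.06 in L20, beside medians of 0.03 and 0.00 over all probe sets. In wild type 5 were higher and 9 lower, and in L20 4 were higher and 10 lower. By limma 0 of 14 were called in either line, and 2 in each had p below 0.05 without adjustment (bZIP19 and bZIP61 in wild type, bZIP53 and bZIP61 in L20). Over all probe sets 0.532% were called in wild type and 0.378% in L20, and 6.63% and 9.73% had such a p. The replicate block called 0 of 14 in both lines as well. The 95% intervals of 9 bZIP genes in wild type and 8 in L20 lay within 1 log2 unit of 0. Of the wider intervals, those of bZIP61 in both lines (-3.79 to -1.38 and -3.93 to -1.52) and of bZIP53 in L20 (-1.78 to -0.17) left out 0, without adjustment for the number of genes.

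The other families were set beside these. The WRKY genes had median cold differences of -0.15 in wild type and -0.30 in L20, the IAA genes of 0.01 and -0.06, and the bHLH genes of -0.09 and -0.04. The sign of most of these medians rested on single arrays. With 1 array left out, the IAA median ran from -0.068 to 0.14 in wild type and from -0.088 to 0.029 in L20, and the bHLH median from -0.088 to 0.32 and from -0.14 to 0.55. The WRKY median ran from -0.24 to -0.14 in wild type, and in L20 from -0.67 without replicate 2 to 0.15 without replicate 1 of L20 before cold. Over all 32 members the median was -0.02 in wild type and -0.08 in L20. The median size of the difference, without sign, was 0.23 and 0.30 over the members and 0.15 and 0.18 over all probe sets. No member was called in wild type by limma with or without the replicate block, where 0.532% and 1.57% of all probe sets were, and 3 of 32 had p below 0.05 before adjustment, against 6.63%. In L20 no member was called without the block, against 0.378% of all probe sets. With the block 1 of 32 was called, against 2.55%, or 1.27% downwards. Before adjustment p was below 0.05 for 3 of 32 there, against 9.73%. In the blocked model this count was 6 of 32 in wild type, against 11.8%, and 7 of 32 in L20, against 16.8%.

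Arrays before and after cold did not overlap in wild type for 6 members higher after cold and 5 lower, of 32. Over all probe sets these shares were 16.9% and 12.3%. In L20 it was 4 members higher and 6 lower, against 15.4% and 18.1%. The members' counts were close to these shares in both lines.

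**Figure D2:**
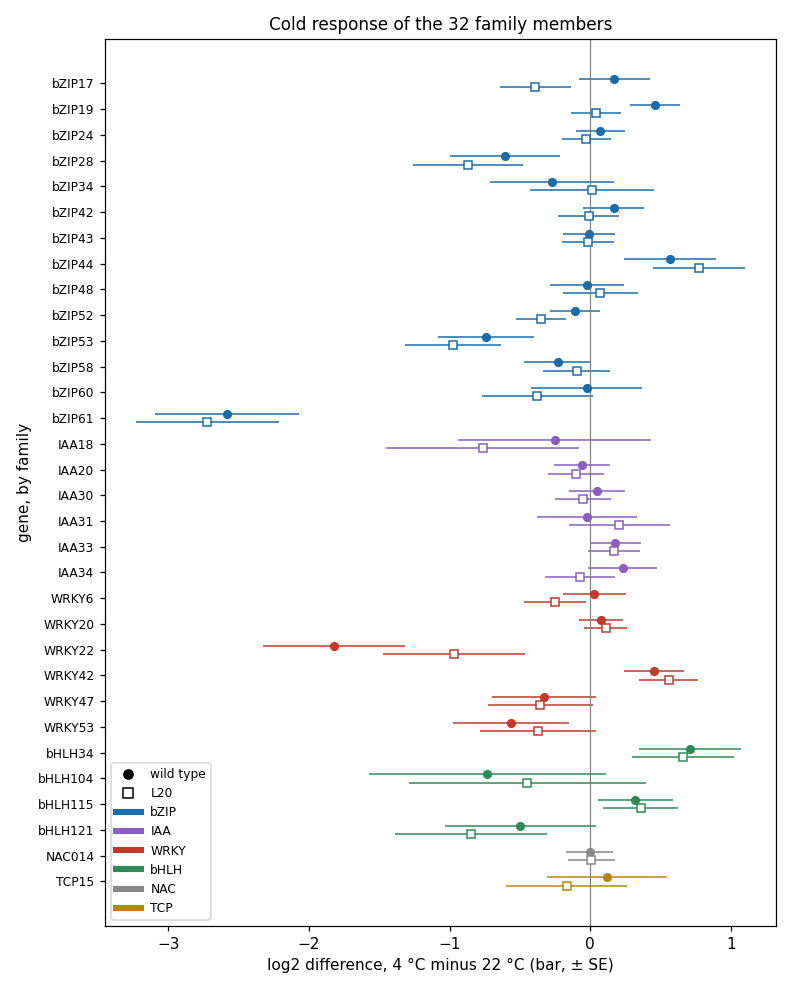
Log2 difference after minus before cold for the 32 genes (one row each, coloured by family), with filled circles for wild type, open squares for L20 and bars for the standard error from limma. bZIP61 at -2.58 and -2.72 lies farthest from 0, and the other 31 genes lie between -1.82 and 0.77.

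Among the WRKY genes, WRKY22, which acts in the response to microbial patterns, had the lowest cold difference. It read 5.36 and 6.58 in wild type before cold and 4.32 and 3.98 after, and 5.44 and 4.18 in L20 before and 3.86 and 3.83 after. Arrays before and after cold were separate in each line. The difference was -1.82 ± 0.50 in wild type and -0.97 ± 0.50 in L20, and neither passed (limma adjusted p = 0.324 and 0.669). Averaged over both lines WRKY22 stood at -1.40 ± 0.36 and was not called (limma adjusted p = 0.133, and 0.0805 with the replicate block). It passed when the block was joined with trend and robust settings (limma adjusted p = 0.0166). WRKY53, a regulator of leaf senescence, stood at -0.56 ± 0.41 in wild type, with 4.59 and 4.46 before cold and 4.16 and 3.77 after. WRKY47 stood at -0.33 ± 0.37, and its wild-type groups did not overlap either. In L20 both overlapped, at -0.37 ± 0.41 and -0.35 ± 0.37.

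WRKY42, which represses the phosphate exporter gene PHO1, was the WRKY member with the highest cold difference. It read 4.96 and 4.63 in wild type before cold and 5.12 and 5.38 after, and 4.47 and 4.70 in L20 before and 5.29 and 5.01 after. All 4 arrays after cold lay above all 4 before, which 5.05% of all probe sets showed in this direction. The differences of 0.46 ± 0.21 and 0.56 ± 0.21 missed the test (limma adjusted p = 0.853 and 0.435). WRKY20 varied least of the 32 genes, between 6.86 and 7.02 on the 8 arrays. WRKY6, of phosphate starvation and senescence, read between 4.80 and 5.42, with cold differences of 0.03 ± 0.22 and -0.25 ± 0.22.

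The 4 bHLH genes encode regulators of iron deficiency: bHLH34, bHLH104 and bHLH115 act together upstream of the iron uptake programme, and bHLH121 works with them. bHLH121 read 7.71 and 8.72 in wild type before cold and 7.25 and 8.20 after, and 8.30 and 9.02 in L20 before and 7.25 and 8.36 after. Replicate 2 was higher than replicate 1 in all 4 groups, by 0.72 to 1.11. Within each replicate number the signal was lower after cold, by -0.47 and -0.53 in wild type and by -1.04 and -0.66 in L20. The test without the block gave -0.85 ± 0.54 in L20 (limma adjusted p = 0.791). With the replicate block bHLH121 fell in L20 (-0.85 ± 0.15, limma adjusted p = 0.0443), and missed in wild type (-0.50 ± 0.15, 0.231). The blocked call was lost without any 1 of the L20 arrays or of the wild-type arrays after cold, and held without either wild-type array before cold (limma adjusted p = 0.0259). Averaged over both lines it fell by 0.67 on the log2 scale with the block (limma adjusted p = 0.0178), and stood at 0.612 without it. That blocked call was lost without replicate 1 of L20 before cold (limma adjusted p = 0.0506) and without any 1 of the arrays after cold (0.0735 to 0.113).

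bHLH104 showed the largest replicate difference of the 32 genes. Replicate 1 read 7.52, 7.37, 7.71 and 7.27 and replicate 2 read 6.83, 5.52, 6.05 and 5.60, in the order wild type before and after cold and L20 before and after cold. Its cold difference was -0.73 ± 0.84 in wild type and -0.45 ± 0.84 in L20. With the replicate block the SE was 0.28 and neither line passed (limma adjusted p = 0.374 and 0.512). Within replicate numbers 1 and 2 it differed by -0.15 and -1.31 in wild type and by -0.43 and -0.46 in L20. bHLH34 lay higher after cold. In wild type it read 4.14 and 5.02 before and 5.33 and 5.25 after, and in L20 4.55 and 4.70 before and 5.70 and 4.87 after. The arrays were separate in each line, and the differences of 0.71 ± 0.36 and 0.66 ± 0.36 missed the test (limma adjusted p = 0.938 and 0.702). bHLH115 stood at 0.32 ± 0.27 and 0.36 ± 0.27, with separate groups in wild type. Of the 4 iron regulators, bHLH34 and bHLH115 thus lay above 0 and bHLH104 and bHLH121 below it in both lines.

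None of the Aux/IAA genes was called with cold. IAA18, a repressor of auxin responses, read 5.84 and 5.43 in wild type before cold and 6.07 and 4.69 after, and 6.79 and 5.68 in L20 before and 6.31 and 4.62 after. Replicate 1 was the higher one in every group, and cold differed by -0.25 ± 0.69 and -0.77 ± 0.69. The replicate block gave an SE of 0.29 in both lines and no call (limma adjusted p = 0.849 and 0.259). IAA20, IAA30 and IAA31 encode proteins without a complete form of the conserved degron through which auxin leads to their removal. Their cold differences lay between -0.10 and 0.21 over both lines. IAA33 stood at 0.18 ± 0.18 and 0.17 ± 0.18, with wild-type groups of 3.95 and 3.81 before cold and 4.15 and 3.96 after that did not overlap. IAA34 stood at 0.23 ± 0.25 and -0.07 ± 0.25. NAC014 differed by -0.0038 and 0.0083 and read between 5.72 and 6.05. TCP15, a growth regulator of the class I TCPs, differed by 0.12 ± 0.43 and -0.17 ± 0.43.

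**Figure D3:**
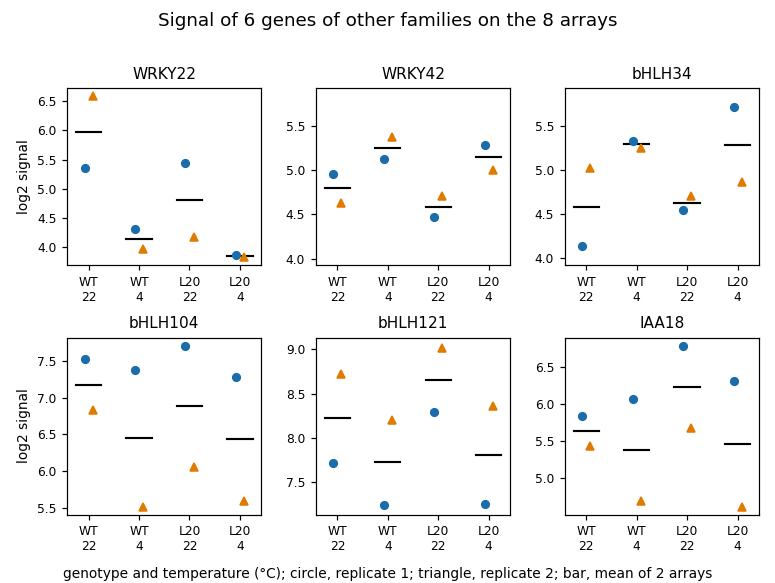
Log2 signal of 6 genes of the WRKY, bHLH and IAA families on each array, with circles for replicate 1, triangles for replicate 2 and a bar for the mean of the 2 arrays (each panel has its own axis). WRKY22 and WRKY42 are separate before and after cold within each line, while in bHLH104, bHLH121 and IAA18 the replicates lie apart in all 4 groups.

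In many members the replicates differed by more than the samples before and after cold did. Replicate 1 differed from replicate 2 in the same direction in all 4 groups for 13 of 32 genes, beside 41.2% of all probe sets. Its mean size was 1.47 for bHLH104, 1.15 for IAA18, -0.95 for bHLH121 and -0.77 for bZIP34 (log2, replicate 1 minus replicate 2). In 18 of 32 genes the mean replicate difference was larger than the cold difference averaged over both lines, beside 61.5% of all probe sets. Both counts were close to the shares over all probe sets. For bZIP61 the mean replicate difference was 0.09 against a cold difference of -2.65, for WRKY22 0.10 against -1.40 and for bZIP53 0.06 against -0.86. These means carry a sign, so opposite differences in single groups cancelled. By group the replicate difference ran from -1.09 to 1.25 for bZIP61, -1.22 to 1.26 for WRKY22 and -0.87 to 0.63 for bZIP53.

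**Figure D4:**
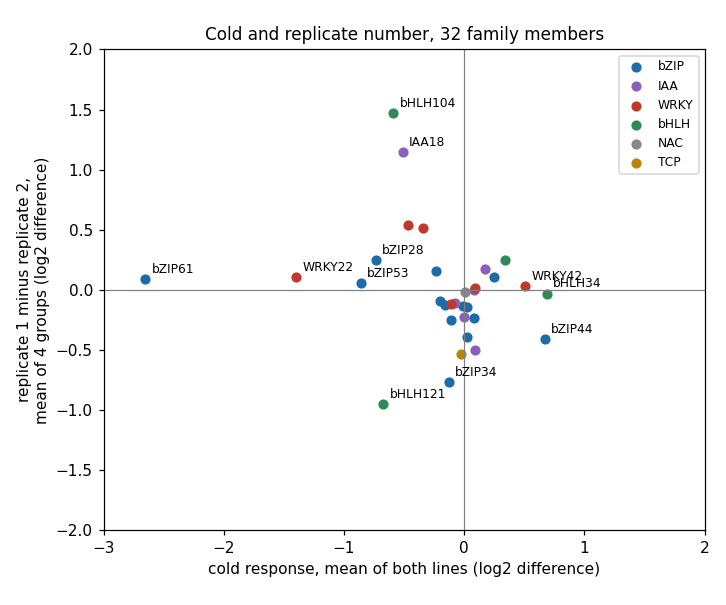
Mean difference of replicate 1 minus replicate 2 over the 4 groups (vertical) against the cold difference averaged over both lines (horizontal), both in log2, 1 point per gene coloured by family. bZIP61 and WRKY22 lie far to the left near 0 on the vertical axis, whereas bHLH104 and IAA18 lie high and bHLH121 low. The vertical mean carries a sign, so opposite replicate differences in single groups cancel.

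L20 was compared with wild type before cold to ask whether the wheat factor went with other levels of the plant's own factors. No member was called by limma with or without the replicate block, where 0.0176% and 0.167% of all probe sets were. Before adjustment p was below 0.05 for 0 of 32, against 5.54% of all probe sets, and for 1 of 32 (bHLH121) in the blocked model, against 11.1%. The bZIP genes had a median difference of 0.16 (9 higher, 5 lower), beside 0.04 over all probe sets, and ran from -0.24 for bZIP34 to 0.50 for bZIP28. bZIP17, bZIP19 and bZIP52 were higher on both L20 arrays than on both wild-type arrays, by 0.48 ± 0.25, 0.30 ± 0.18 and 0.22 ± 0.18. With NAC014 (0.17 ± 0.17) they were the 4 members with separate groups, all higher, beside 17.4% of all probe sets, and 0 members were separate and lower, beside 10.3%.

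Before cold, the difference between the lines had the same direction in both replicate numbers for 12 of 32 members, beside 50.7% of all probe sets. The genes named next were among those with opposite directions. bZIP60 differed by 1.15 in replicate 1 and -0.74 in replicate 2 (log2, L20 minus wild type), bZIP53 0.999 and -0.51, and bZIP28 1.13 and -0.13. WRKY22 stood at 0.08 and -2.40, WRKY53 at 0.41 and -0.79 and WRKY47 at 0.19 and -0.76. For bZIP28, bZIP53, bZIP60 and WRKY22, replicate 1 was the lower wild-type array and the higher L20 array before cold. The range over the 4 arrays before cold exceeded that after cold in 20 of 32 members, beside 60.9% of all probe sets. WRKY22 ranged over 2.40 before and 0.49 after cold, and TCP15 over 1.38 and 0.20.

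After cold no difference between the lines was detected. By limma 0 of 32 members were called, 0 had p below 0.05 before adjustment, and 0 were called in the blocked model. Over all probe sets 0% were called by either fit, and 0.0835% had p below 0.05 before adjustment, or 0.567% in the blocked model. For an unadjusted p below 0.05, both percentages lie far below the share expected without any difference, so the test was too strict here. The count of 0 members therefore says little about whether the lines differed. The spread was pooled with the arrays before cold, and replicate differences after cold correlated at 0.837 between the lines. Whether either accounts for the low percentages was not tested. The median size of the difference, without sign, was 0.07 over the members and 0.09 over all probe sets. bZIP44 was the bZIP gene farthest from 0, at 0.42 ± 0.33, with the L20 arrays at 6.48 and 6.28 and the wild-type arrays at 5.66 and 6.25. Its difference was 0.82 in replicate 1 and 0.02 in replicate 2. bZIP61 stood at -0.03 ± 0.51, with a 95% interval from -1.24 to 1.18, and bZIP53 at 0.01 ± 0.34, from -0.79 to 0.82.

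Separate groups after cold were found for bZIP44 and NAC014 (0.18 ± 0.17), higher in L20, and for bZIP24, bZIP60, IAA34 and WRKY22, lower in L20. These were 2 and 4 of 32, beside 8% and 6.81% of all probe sets. IAA34 stood at -0.44 ± 0.25 and WRKY22 at -0.30 ± 0.50. The 95% intervals of 20 of 32 members lay within 1 log2 unit of 0, and the widest, that of bHLH104, ran from -2.01 to 1.99.

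**Figure D5:**
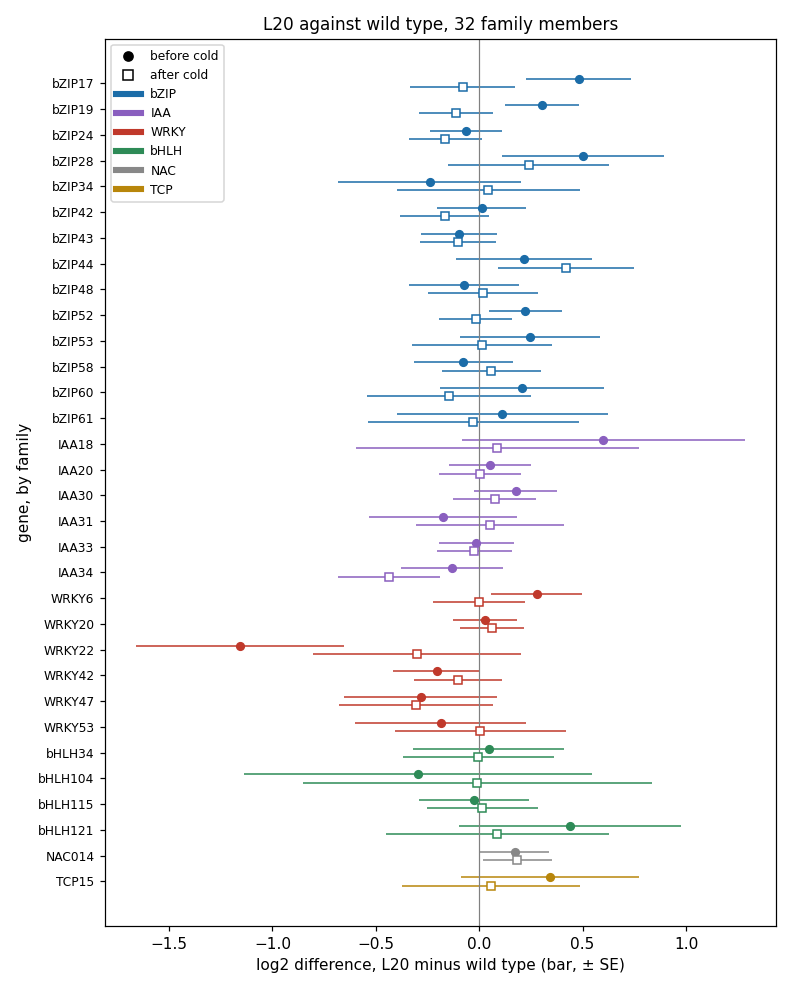
Log2 difference L20 minus wild type for the 32 genes (one row each, coloured by family), with filled circles before cold, open squares after cold and bars for the standard error from limma. WRKY22 before cold, at -1.16, lies farthest from 0, and after cold all genes lie between -0.44 and 0.42.

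Whether the cold response of a member depended on the line was tested as the difference of the responses, L20 minus wild type. By limma 0 of 32 members were called with or without the replicate block, and for 0 of 32 was p below 0.05 before adjustment, beside 0%, 0% and 2.18% of all probe sets. The bZIP median was -0.16, beside -0.04 over all probe sets. bZIP61 stood at -0.14 ± 0.72 with a 95% interval from -1.85 to 1.57, and WRKY22, the farthest from 0, at 0.86 ± 0.71. In bZIP17 cold went with a higher signal in both wild-type replicates (0.18 and 0.17) and a lower one in both L20 replicates (-0.65 and -0.13), a difference of -0.56 ± 0.36 (limma adjusted p = 1.00). The intervals were within 1 log2 unit of 0 for 13 of 32 genes, so a line-dependent response of 2-fold could not be told from none in the others.

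Of 33 bZIP genes that go by other names, 4 were measured: EEL, HYH, FD and POSF21. HYH, a partner of the light-signalling factor HY5, read 4.42 and 4.84 in wild type before cold and 5.17 and 5.49 after, and 3.98 and 4.80 in L20 before and 5.59 and 5.81 after. The arrays before and after cold did not overlap in either line. Over all probe sets 16.9% in wild type and 15.4% in L20 were separate and higher after cold. With the replicate block HYH rose in L20 by 1.31 (limma adjusted p = 0.0253), and the test without it missed (0.177). In wild type it stood at 0.70 ± 0.31 (limma adjusted p = 0.803, and 0.152 with the block). POSF21 was likewise separate and higher after cold in both lines. It read 6.13 and 6.00 in wild type before cold and 7.78 and 6.82 after. In L20 it read 6.40 and 6.18 before and 7.42 and 6.72 after. POSF21 stood at 1.24 ± 0.36 in wild type and 0.78 ± 0.36 in L20 and was not called (limma adjusted p = 0.367 and 0.573). EEL and FD lay below 0, at -0.12 and -0.19 in wild type and -0.08 and -0.07 in L20. So 0 of the 4 were called without the block in either line, and 1 upwards in L20 with it, where 1.27% of all probe sets were called upwards. The blocked call of HYH in L20 was lost without replicate 1 of L20 before cold (limma adjusted p = 0.0905) and without any 1 of the arrays after cold (0.0824 to 0.242). Averaged over both lines HYH and POSF21 rose with the block (limma adjusted p = 0.00921 and 0.0191), where 3.13% of all probe sets were called upwards, and without it neither passed (0.0808 and 0.129). With 1 array left out of the blocked fit, the averaged difference ran from 0.88 to 1.13 for HYH and from 0.86 to 1.16 for POSF21. Each call was lost in several of these fits. None of 25 other cold and light regulators, CBF1 to CBF3 and DREB2A among them, was on a probe set of 1 named gene, so they were not analysed here.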

How the data were processed

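The authors deposited 1 table of log2 signal for 22810 probe sets on 8 arrays. RMA is named by the submitters' processing notes, but no version is given in the sources used here. The table held 64 control probe sets, which were left out. Genes came from the platform annotation (13513 probe sets with 1 gene, 503 with several, 8730 with none), and all 32 members matched a RefSeq gene by Entrez identifier. No background levels, coordinates or sequences were used. Titles of the samples gave the group and the replicate number.

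Tests used limma 3.58.1 in R 4.3.3: a mean per group over all 8 arrays, default eBayes and two-sided p-values, adjusted by Benjamini-Hochberg across the 22746 probe sets. Standard errors and 95% intervals are limma's, unadjusted for the number of genes. Alternatives were the replicate block, trend and robust settings, other normalization, a filter on the 25% of probe sets with the lowest mean, only the groups compared, and each array left out. Every bZIP gene was named. Of other families, called genes, those with separate groups (the 4 farthest in each direction) and the member with the largest cold difference were named, and a few others to complete a family. The members and lists were chosen with earlier results of these data known. The script was tested on simulated data.

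The replicate numbers were treated as a shared batch from the correlations of the replicate differences (0.341 to 0.837), not from the labels. The number of arrays limits the precision.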

Additional observations from a re-analysis of the deposited data

Results flagged for a closer look

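bZIP17 was the 1 member whose signal was higher after cold in both replicates of wild type and lower in both replicates of L20. The difference of the responses was -0.56 (log2, L20 minus wild type), with an SE of 0.36 and a limma adjusted p = 1.00, or 0.952 with the replicate block, so the difference did not pass its test. Such opposite directions were seen in 1 of 32 members and in 8.66% of all probe sets.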

How the results depend on the processing

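Under all 14 single alternatives (13 for the difference of responses) 0 members were called in wild type, between the lines or in the difference of responses, and in L20 the replicate block called 1. Added after the data were seen, the block with trend and robust settings called 1 in wild type and 1 in L20, beside 2.52% and 3.45% of all probe sets. For cold averaged over both lines it called 4 (bZIP44, bZIP61, WRKY22 and bHLH121), beside 7.82%. That averaged count was 1, 2 with the replicate block and 2 after quantile normalization, beside 2.11%, 6.19% and 3.05% of all probe sets. In the blocked fit with 1 array left out, counts ran from 0 to 4 in wild type and in L20, 0 to 1 for the lines before cold, 0 to 8 averaged over both lines (8 and 3 without replicate 1 and 2 of wild type before cold), and stayed at 0 for the other comparisons. Over all probe sets the share called rose as well: without replicate 1 of wild type before cold it was 2.33% in wild type, 7.57% in L20 and 10.4% averaged, against 1.57%, 2.55% and 6.19% with all arrays. The cause was not tested.

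The bZIP median with cold in L20 was -0.38 with the 25% of probe sets of lowest mean left out, which removes 5 of the 14 genes. That filter gave 0.012 for the lines after cold and -0.23 for the difference of responses, which was -0.11 with arrays scaled to a shared median and -0.0804 after quantile normalization. Quantile normalization gave 0.044 for the lines before cold. With 1 array left out the bZIP median ran from -0.12 to 0.13 in wild type, -0.28 to 0.040 in L20, -0.088 to 0.23 between the lines before cold, -0.15 to -0.023 after cold, -0.23 to 0.0085 for the difference and -0.21 to 0.027 averaged over both lines. Each member had 1 probe set, so averaging probe sets was not run.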
